A study of Arabidopsis thaliana with 4 samples.

Results

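The comparison described here is of fas1-2, a mutant of the p150 subunit of chromatin assembly factor 1 (CAF-1), against wild type, measured on 1 of the 4 arrays of the study. The array was chosen by its genotype label, with no use of measured values. It carries 22575 features, of which 9335 have a single gene name; these give 9253 genes. Plants of both channels were Arabidopsis thaliana of the ecotype Nossen, 4 weeks old and grown on solidified MS medium, a standard plant salt medium. Wild-type RNA carried the green dye (Cy3) and fas1-2 RNA the red dye (Cy5). The other arrays set fas2-2, a mutant of the p60 subunit, or wild type taken at 6 h or at 12 h from a gamma-ray dose of 100 Gy (300 Gy/h), against wild type or non-irradiated wild type, with the dyes the same way round. The tissue is called rosette leaves in the sample labels and seedlings without roots in the design text.

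CAF-1 is a histone chaperone that follows the replication fork and places histones H3 and H4 on newly made DNA. FAS1 encodes its largest subunit, and FAS2 and MSI1 the others. Plants without FAS1 are viable and are known for broad, fasciated stems, disturbed meristems and loosened silencing of some repeats.

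Values are log2 ratios of fas1-2 to wild type, so 1 is 2-fold higher and -1 is 2-fold lower. The labels do not state the log base or the direction of the deposited values. Both were taken as those usual for the scanner software and the dyes, and every sign and fold size rests on that reading. There was 1 array and no replicate, so no test was made and a value describes this pair of RNAs only. Repeated spots of 48 transcripts (99 spots) had a pooled SD of 0.24, which is technical spread within the slide. A ratio carries no level, so neither the labelled tissue nor the abundance of a transcript could be checked, and in whole tissue fewer cells of a type and less RNA per cell cannot be told apart. FAS1 and FAS2 were not analysed here, so the genotype label was not checked. Whether 1 wild-type RNA served several arrays, how many plants went into a sample, and when in the day these were harvested is not in the labels. Values on the other arrays are therefore set beside those of fas1-2 without a test. A value of exactly 0 may be an unmeasured spot and is called listed at 0. Gene families, such as histones or cytochrome P450 genes, were gathered by gene symbol or synonym. Their counts and medians therefore leave out members known by a locus code only.

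Most genes lay close to wild type. The middle 50% of genes ran from -0.16 to 0.13, and the outer 1% on each side began at -1.11 and 1.24. At least 2-fold from wild type were 265 genes (2.86% of those measured), 146 of them higher (1.58%) and 119 lower (1.29%). At 3-fold these were 39 and 35. Over all features, unnamed ones included, 354 were higher and 764 lower, so the balance turned. Of these, 475 unnamed features were 2-fold lower on all 4 arrays, and 7 were higher on all 4. Unnamed features leaned low on every array, so this is not particular to fas1-2. They were 206 higher and 644 lower in fas1-2 and 286 and 655 in fas2-2. After irradiation they were 317 and 627 at 6 h and 221 and 654 at 12 h. With the mean of the irradiated arrays subtracted, 195 genes were higher and 198 lower. The share at 2-fold was 3.11% in fas2-2 (1.77% higher and 1.34% lower), 2.89% at 6 h (1.88% and 1.01%) and 1.65% at 12 h (0.908% and 0.746%). By chromosome the share in fas1-2 ran from 2.22% on chromosome 4 (30 of 1349) to 3.22% on chromosome 5 (71 of 2203).

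**Figure D1:**
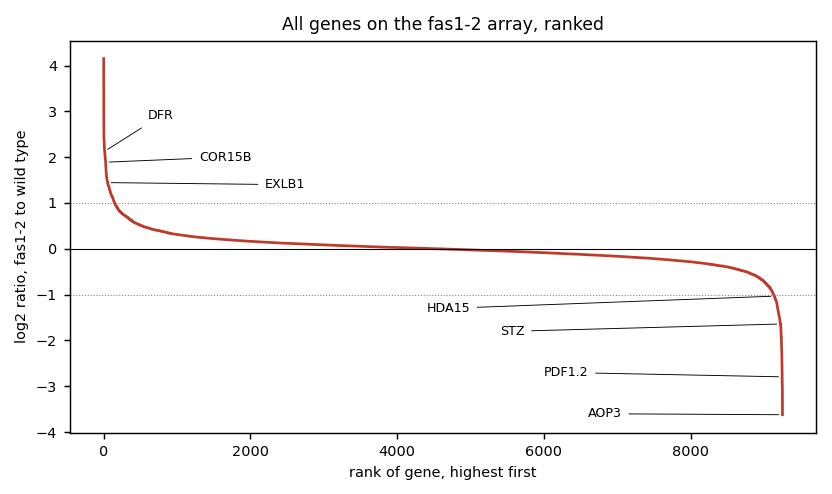
Log2 ratio of fas1-2 to wild type (vertical) for 9253 genes ranked from highest to lowest (horizontal), with dotted lines at 2-fold. The curve is flat for most genes, and the tails reach 4.15 and -3.62; 7 genes named in the text are marked.

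Genes of chromatin, the field in which CAF-1 acts, stood mostly near 0. The 11 histone genes found by name had a median of 0.02, with 8 above and 3 below 0 and none at 2-fold. Histone genes without such a name are not among them. They ran from -0.41 for HTB2, a gene of histone H2B, to 0.33 for HTB4, another H2B gene. HTR12, the centromeric H3 variant, stood at 0.20. Of 10 enzymes and factors of chromatin (median 0.01), 1 was at 2-fold: HDA15, a histone deacetylase, stood at -1.03 in fas1-2, 0.08 in fas2-2, -0.14 at 6 h and 0.05 at 12 h. It was low in fas1-2 and near 0 on the other arrays. CHR42 and CHR40, SNF2-type chromatin remodelling proteins, stood at 0.93 and 0.72 in fas1-2, and both are listed at 0 in fas2-2. SGA2, of the ASF1 family of chaperones that hand H3 and H4 to CAF-1 in yeast and animals, stood at -0.12. SPT5-1, a subunit of a transcription elongation factor, was outside this list and stood at 1.38 in fas1-2, 0.07 in fas2-2, -0.21 at 6 h and -0.44 at 12 h.

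Genes of the division cycle were as close to wild type. The 9 genes of cell division and endocycle had a median of 0.02, ran from -0.22 to 0.27, and none was at 2-fold. In fas2-2 their median was 0.27, and at 6 h it was -0.92. The 9 genes of DNA replication and repair had a median of 0.02 in fas1-2. The lowest of them was RAD9, part of a checkpoint clamp in yeast and animals, at -0.94, and the highest was PRL, the MCM7 subunit of the replicative helicase, at 0.43. Tubulins, 11 in number, ran from -0.25 to 0.09.

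**Figure D2:**
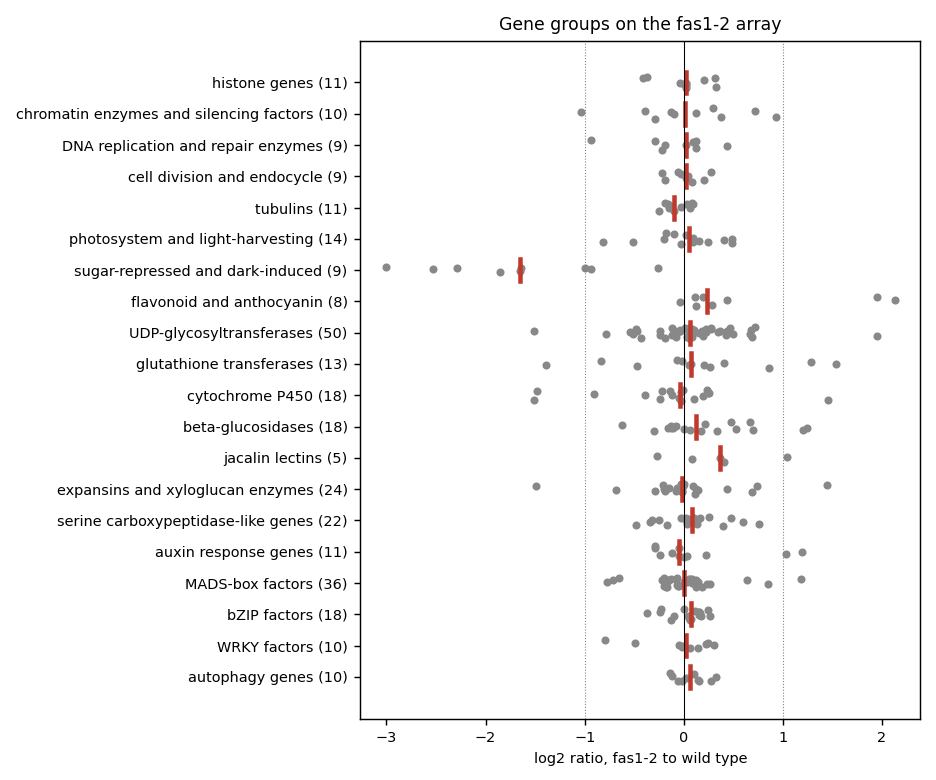
Log2 ratio of fas1-2 to wild type (horizontal) for the members (grey points) and the median (red bar) of 20 gene groups. Brackets give the number of measured members on each list, and dotted lines mark 2-fold. Histones, division genes and tubulins gather at 0, and the sugar-repressed list lies to the left with a median of -1.65. Of the 9 members of that list, 5 were known to be low when it was made.

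Pigment and sulphur metabolism held some of the farthest named genes. DFR, the reductase of dihydroflavonols on the way to anthocyanins, stood at 2.13 in fas1-2, 2.04 in fas2-2, -0.01 at 6 h and 0.77 at 12 h. UF3GT, which adds a sugar to anthocyanins, stood at 1.95, 1.88, -0.61 and 0.11 in the same order. Both were high in both mutants and under 2-fold after irradiation. The other 6 of 8 measured genes of the pathway ran from -0.04 for UGT78D1 to 0.43 for AT1G03940, and the list's median was 0.24. Lowest of all 9253 genes was AOP3, which shapes the side chain of glucosinolates, at -3.62 in fas1-2, -2.76 in fas2-2, -1.49 at 6 h and -0.15 at 12 h. APS4, an ATP sulfurylase that activates sulphate, stood at -1.08, -2.36, -0.11 and -0.23. AOP3 and APS4 were low in both mutants, but the 5 measured genes of the glucosinolate and sulphur list had a median of -0.09 in fas1-2 and 0.56 in fas2-2. AT1G04770 stood at 0.83 and 1.31 in the mutants and AOP1 at -0.09 and 0.56. PYK10, also on the list, was above 0 in both, at 0.34 in fas1-2.

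Antimicrobial and resistance genes stood on both sides, while a list of salicylate defence markers was low throughout. PDF1.2, a plant defensin, stood at -2.79 in fas1-2, -2.33 in fas2-2, -0.17 at 6 h and -1.71 at 12 h. THI2.1, a thionin, stood at 1.30, -0.01, -0.32 and 0.23, so these antimicrobial peptides lay on opposite sides in fas1-2. CHI, a chitinase, stood at -1.19, -0.01, 1.68 and -1.88. It is 1 of 3 measured salicylate markers, all below 0 in fas1-2 and 2 at 2-fold (median -1.19). AT3G28510 was at -0.88 and AT4G18250 at -3.05. Over all genes 1.29% were 2-fold lower, and the list was chosen with earlier results known. The median of these markers was -0.79 in fas2-2, 1.68 at 6 h and -1.66 at 12 h. CSA1, a resistance-type protein with a nucleotide-binding site and leucine-rich repeats, stood at 1.28, 0.04, 0.07 and -0.54. Neither CHI nor CSA1 left wild type in fas2-2 by more than the technical spread. JAL23, a jacalin-type lectin, was at 1.04 in fas1-2, and 4 of 5 jacalin lectins found by name were above 0 (median 0.37). The 10 WRKY factors had a median of 0.02.

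The 6 measured genes of cold, drought and abscisic acid were split, with 3 above and 3 below 0 and a median of 0.02. COR15B and COR15A, which protect chloroplast membranes in the cold, were high, COR47 was at -0.65, and KIN1 and KIN2 were at -0.03 and 0.08. COR15B stood at 1.89 in fas1-2, 0.21 in fas2-2, -1.63 at 6 h and 0.21 at 12 h. COR15A stood at 1.10, 0.58, -1.56 and -0.17. Both were thus above wild type in fas1-2 and below it at 6 h. STZ, a zinc finger repressor of the stress response and the lowest of the list, stood at -1.64, -1.12, 1.16 and 0.02. CML41, a calmodulin-like protein, stood at -1.13, -0.72, 2.15 and 0.20, and ZCF37 at -1.46, -1.39, 2.05 and 0.51. These 3 genes were low in both mutants and high at 6 h.

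Enzymes of detoxification stood on both sides within families. Of 13 glutathione transferases (median 0.08), which join glutathione to toxic compounds, 2 were at least 2-fold higher and 1 lower. Over all genes 1.58% were higher and 1.29% lower, and these families were gathered with earlier results known. GSTU25 stood at 1.28 in fas1-2, -0.08 in fas2-2, -0.08 at 6 h and -0.09 at 12 h. GSTU23 stood at 1.54, 0.56, 0.26 and 0.02, and GSTF3 at -1.39, -0.72, 1.36 and -1.23. GSTU26, next in locus number to GSTU25, stood at -0.48 in fas1-2, so the neighbouring genes lay on opposite sides. Of 18 cytochrome P450 genes (median -0.04), CYP71B5 was at 1.46 while CYP71B20 and CYP71B22 were at -1.48 and -1.51. The latter belong to a run of CYP71B genes on chromosome 3, of which 9 were measured and 8 were below 0 (median -0.25). Of the same 9, 6 were below 0 in fas2-2, 5 at 6 h and 9 at 12 h (median -0.45). CYP71B23 of that run stood at -0.91 in fas1-2 and 1.75 at 6 h, and CYP71B34 was the member above 0, at 0.23. In fas2-2, CYP71B22 was at -1.62 but CYP71B20 at -0.21. Whether these probes cross-hybridise within the family was not tested. Of 50 UDP-glycosyltransferases found by name (median 0.06), UF3GT was at least 2-fold higher and UGT85A4, at -1.51, lower. Members of these families with a locus code only were not counted.

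**Figure D3:**
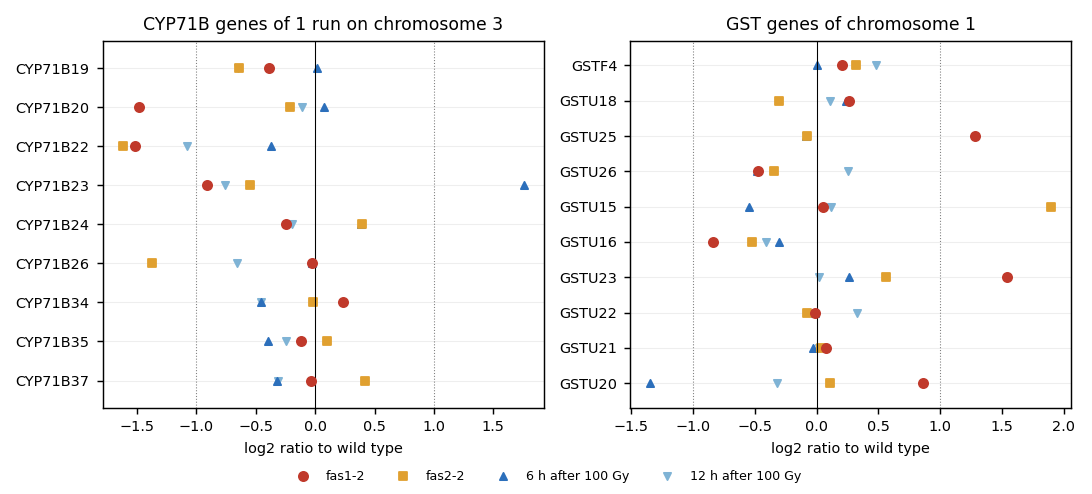
Log2 ratio to wild type (horizontal) of the CYP71B genes of a run on chromosome 3 (left) and of the glutathione transferase genes of chromosome 1 (right) on the 4 arrays, in locus order, with dotted lines at 2-fold. CYP71B20 is at -1.48 in fas1-2 and near 0 on the other arrays, as GSTU25 is at 1.28.

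Of 24 expansin and xyloglucan genes found by name, 1 was 2-fold higher and 1 lower. At 2-fold were also 1 of 18 genes of a wall acetylation family, 2 of 18 beta-glucosidases and 0 of 3 pectin enzymes. Over all genes 2.86% were at 2-fold, and these families were gathered with earlier results known. EXLB1, of the expansin-like family, stood at 1.45 in fas1-2, 0.87 in fas2-2, -1.64 at 6 h and -0.89 at 12 h. XTH33, of the enzymes that cut and rejoin xyloglucan, stood at -1.49, -1.94, -0.63 and -0.16. The 24 members of this group had a median of -0.02, with 16 below 0. TBL36, of a family that acetylates wall polymers, stood at 1.07, -0.58, -0.58 and 0.39. It was high in fas1-2 and below wild type in fas2-2. BGLU33 and BGLU46, beta-glucosidases, stood at 1.24 and 1.20 in fas1-2 and at 1.07 and 1.95 in fas2-2. The 18 beta-glucosidases found by name had a median of 0.12 in fas1-2.

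Hormone and regulatory genes at 2-fold included 2 of 11 auxin genes found by name, each higher. Over all genes 1.58% were 2-fold higher, and the families were gathered with earlier results known. IAA31, a repressor of auxin response, stood at 1.19 in fas1-2, 0.28 in fas2-2, 0.20 at 6 h and 0.15 at 12 h. GH3.9, of a family that conjugates hormones to amino acids, stood at 1.03, 1.34, -0.11 and -1.49. The median of the auxin genes was -0.04. Of 36 MADS-box factors found by name, AGL87 was the 1 at 2-fold, at 1.19, -0.02, -0.22 and -1.83. UPB1, a bHLH factor that represses peroxidase genes in the root, stood at -1.18 in fas1-2 and -1.71 in fas2-2. DEWAX, a repressor of wax genes, stood at -1.18 and -1.13 in the mutants. SQN, a cyclophilin needed for microRNA function and the timing of leaf identity, stood at -1.13, -0.06, -0.02 and -0.06. It was low in fas1-2 and within the technical spread elsewhere.

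Markers of other organs were read beside these results, and their part in them was not tested. The 4 measured root markers ran from -0.07 to 0.34, the latter being PYK10, and the 7 leaf markers from -0.81 for PSBW to 0.49 for LHCB4.3. Of 5 markers of anther, pollen and seed, 4 were below 0 and SHT is listed at 0. ATA27 stood at -0.62 in fas1-2 and -1.27 in fas2-2, AT5G62080 at -0.86 and -1.08, and AT3G01570 at -0.27 and -0.22. Low values of these markers were thus not confined to fas1-2. AMS, a factor of the tapetum in the anther, stood at -1.54 in fas1-2, is listed at 0 in fas2-2, and stood at 1.73 at 6 h and 3.42 at 12 h.

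Genes of sugar and nutrient supply included a list whose low median was partly fixed by how it was chosen. All 9 measured loci of this list of sugar-repressed and dark-induced genes were below 0, with 6 at 2-fold and a median of -1.65. Over all genes 1.29% were 2-fold lower, but 5 of the 9 had been known to be low when the list was made. The other 4 were AT2G05540 at -2.29, AT1G21400 at -0.99, AKINBETA1, a subunit of the energy-sensing SnRK1 kinase, at -0.93, and AT5G57655 at -0.26. The median of the whole list was -1.70 in fas2-2, 0.47 at 6 h and 0.43 at 12 h. It was thus low in both mutants and not in fas1-2 alone. APL3, a subunit of the enzyme that starts starch synthesis, stood at 1.26 in fas1-2, 0.74 in fas2-2, 0.49 at 6 h and 0.27 at 12 h. SWEET13, a sucrose exporter, stood at 1.12, 0.65, -0.79 and -0.97. NPF3.1, of the nitrate and peptide transporter family, stood at 1.46, 1.59, -0.26 and -0.39. Of 12 transporters of nitrate, peptides and amino acids found by name, 9 were above 0 in fas1-2 (median 0.19). APL3, SWEET13 and NPF3.1 were above wild type in both mutants, while NRT2.5 of the transporter list stood at 0.40 in fas1-2 and -0.92 in fas2-2.

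In organelles and basic metabolism, BIGYIN, a factor of mitochondrial and peroxisomal fission, stood at 1.25 in fas1-2, 2.39 in fas2-2, -0.33 at 6 h and -0.43 at 12 h. VTC4, an enzyme of ascorbate synthesis, stood at 1.11, 1.15, -0.19 and -0.04. Both were at least 2-fold higher in both mutants and below 0 after irradiation. SUFE2, of iron-sulphur cluster assembly, stood at -1.08, -0.69, 0.90 and -0.55, and CYTC6A, a cytochrome of the thylakoid lumen, at -1.08, -0.46, -0.35 and -0.03. All 7 measured genes of a list of mitochondrial and oxidative stress were above 0, with a median of 0.19, against 0.08 in fas2-2, 0.49 at 6 h and 0.15 at 12 h, and of -0.11 with the irradiated mean subtracted. GSTU25 and AT5G51440, at 1.93, were at 2-fold. PDC3, a pyruvate decarboxylase, stood at -1.17 in fas1-2 and 1.43 in fas2-2. LUL1, a ubiquitin ligase, stood at 1.66, 0.22, 0.04 and -0.27, and UBC31, a ubiquitin-conjugating enzyme, at 1.10, 0.92, 0.17 and -0.08. CHAT, which makes an ester of the green leaf volatiles, was above wild type on each array, at 1.07, 0.73, 0.63 and 0.70. M10 and SIS, named here without a role, stood at -1.16 and -1.05 in fas1-2.

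**Figure D4:**
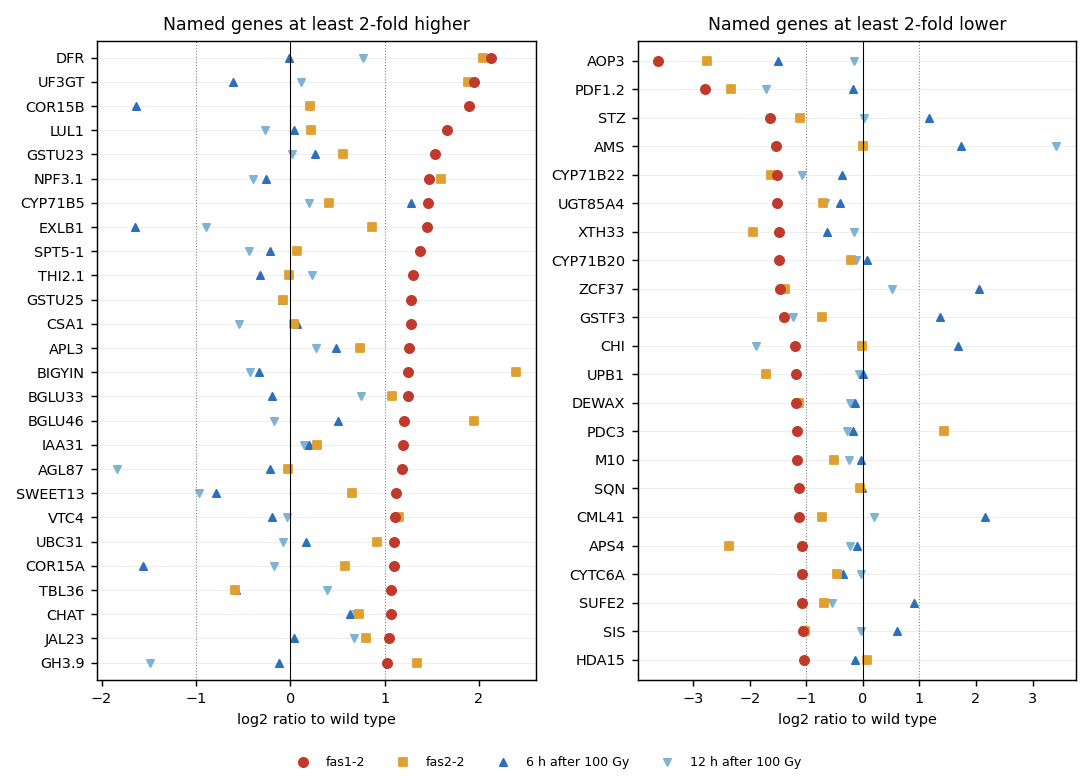
Log2 ratio to wild type (horizontal) of the 26 genes with an annotated name at least 2-fold higher in fas1-2 (left) and the 22 lower (right), on the 4 arrays, with dotted lines at 2-fold. DFR and AOP3 head the sides at 2.13 and -3.62, and the fas2-2 value lies near 0 for genes such as GSTU25 and HDA15.

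The farthest genes are mostly known by a locus code only: of the 20 highest 1 has an annotated name, and of the 20 lowest 2. AT3G44670 was highest, at 4.15 in fas1-2, 0.31 in fas2-2, -3.02 at 6 h and 0.65 at 12 h. AT5G20790 followed at 3.09, 0.91, -0.01 and -1.25. AT5G53820 stood at 2.76, 2.05, -0.19 and 0.77. The first of these was near wild type in fas2-2 and the last was high there too. On the low side, AT4G18250 stood at -3.05, -0.79, 0.75 and -0.95. AT3G15450 stood at -3.01, -2.38, 0.33 and 0.60, and AT5G42850 at -2.95, -4.29, 0.39 and 0.21. The last was lower in fas2-2 than in fas1-2.

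**Figure D5:**
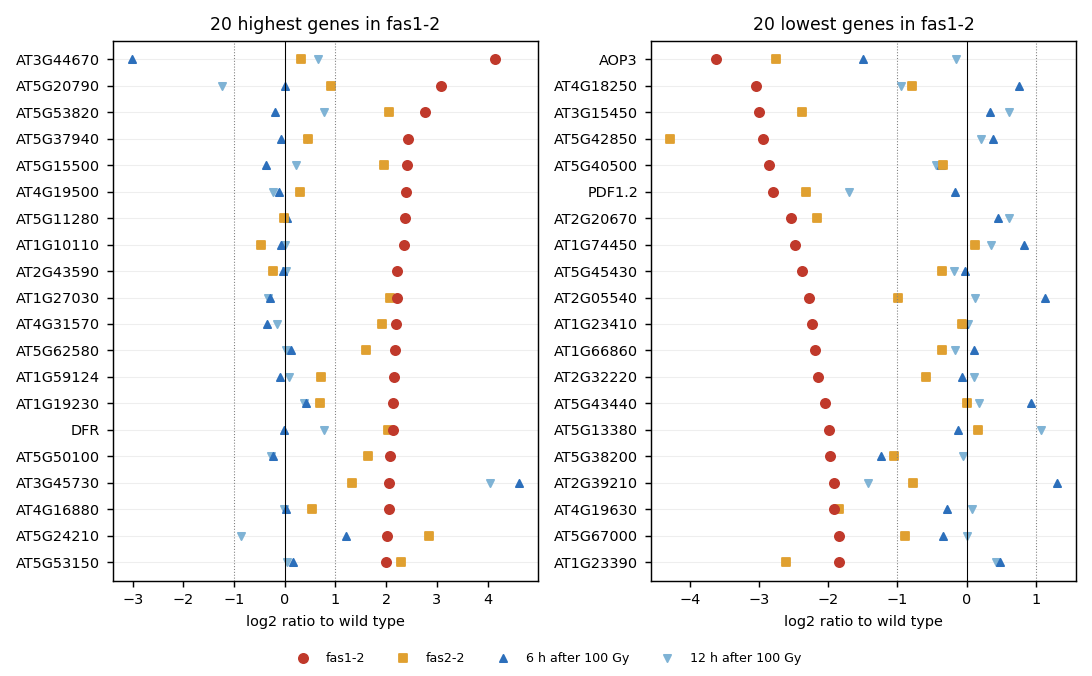
Log2 ratio to wild type (horizontal) of the 20 highest (left) and 20 lowest (right) genes in fas1-2 on the 4 arrays, with dotted lines at 2-fold. All 20 high genes are at 2.00 or more in fas1-2, and their fas2-2 values spread from -0.46 to 2.84.

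Of the 265 genes at 2-fold in fas1-2, 69 lay within 0.5 of 0 on each of the other 3 arrays, 39 of them high and 30 low, and 9 with an annotated name. In all, 7113 of 9253 genes lay so near 0 on those arrays. With 1 array, a departure seen on it alone cannot be told apart from an error of that array. The highest such genes were AT5G37940 at 2.43, AT4G19500 at 2.40, AT5G11280 at 2.37, AT1G10110 at 2.35 and AT2G43590 at 2.22. AT5G11280 stood at -0.01 in fas2-2, 0.04 at 6 h and -0.01 at 12 h. The lowest were AT5G40500 at -2.86, AT5G45430 at -2.38, AT1G23410 at -2.24 and AT1G66860 at -2.19. The named genes were LUL1, SPT5-1, THI2.1, GSTU25, IAA31, HDA15, CYTC6A, SQN and CYP71B20, with the values given above.

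Genes at 2-fold that lie at most 5 protein-coding genes apart made 25 pairs, a description added after the data were seen. Over all measured genes, 8057 pairs with no measured gene between them lie that close. A pair at 2-fold may have other measured genes between its members, so these counts differ in kind and give no share. Of the 25 pairs, 11 stood on the same side (6 high, 5 low) and 14 on opposite sides. COR15B and COR15A were both high, and CYP71B20 and CYP71B22 both low. AT4G19500 and AT4G19530 were high, at 2.40 and 1.81, beside AT4G19570 at -1.10. CHI, at -1.19, lies near AT2G43590, at 2.22, and PDF1.2, at -2.79, near AT5G44400, at 1.42.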

How the data were processed

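RNA was hybridised to Agilent Arabidopsis 2 oligonucleotide arrays with 2 channels, from 400 ng of RNA and 1 µg of labelled cRNA per dye, per the labels. Each feature has 1 deposited value per array, read as a log10 ratio. Agilent Feature Extraction is named in the submitters' processing notes; its version, background correction and dye normalization are not given in the sources used here. On the fas1-2 array they had a median of -0.0008 and ran from -1.80 to 1.66, with 131 values of exactly 0, which were kept. Spot intensities and flags were not used, so no spot was filtered, and the number of arrays limits the precision.

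Multiplication by 3.32 turned these into log2 ratios (Python 3.11.15, pandas 2.3.3, numpy 2.4.6, figures with matplotlib 3.10.9). Of the features, 40 with several gene names and 13200 with none were left out. Of the 9335 with 1 name, 9317 were matched by gene identifier to RefSeq (assembly TAIR10.1), used for names and gene order, and 18 go by the name on the array. Where a gene had several probes (79 genes), their mean was taken. Of the genes, 1425 have an annotated name and 7828 a locus code only.

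Genes were counted at 2-fold, and lists were described by counts and medians where 3 members were measured. Families were matched on gene symbols and synonyms, so members without a matching name were left out. Members and lists were chosen with earlier results of these data known, 6 name families were added and 9 lists edited after values were seen. Named genes were the 20 highest and 20 lowest, list members at 2-fold or else the 4 farthest from 0, the 10 each way near 0 on the other arrays, the 10 each way farthest from the irradiated mean, and genes with disagreeing probes; the text gives those that bear on each group. Genes at 2-fold with an annotated name, and the neighbouring genes, were also named after their values were seen. The counting code was run on simulated data whose planted changes stood clear of the threshold. This checks the code and not the calls near 2-fold. Alternatives were centring, scaling, the irradiated mean as baseline, zeros left out, all features, and stricter thresholds. A planned search for promoter motifs was not run, as no promoter sequences were used here.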

Additional observations from a re-analysis of the deposited data

Results flagged for a closer look

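PDC3 stood at -1.17 in fas1-2 and 1.43 in fas2-2, so the mutants lay on opposite sides of wild type. AT3G57470 stood at 1.37 in fas1-2 and -1.56 in fas2-2; it was chosen after its values were seen. Neither difference was tested, since each mutant has 1 array.

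Among the 13200 features without a gene name, 850 were at least 2-fold from wild type on the fas1-2 array, 206 higher and 644 lower. Of the unnamed features, 475 were 2-fold lower and 7 higher on all 4 arrays, against 1 and 1 of those with a single name.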

How the results depend on the processing

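No paired analysis was possible because each group has 1 array. Genes 2-fold higher and lower, 146 and 119, became 39 and 35 at 3-fold and 354 and 764 over all features. With the mean of the irradiated arrays subtracted they became 195 and 198. That is a change of baseline, so each such value also holds what the irradiated arrays show. The 69 genes near 0 on the other arrays became 30 at a limit of 0.3. Subtracting the irradiated mean moved 16 list medians by at least the pooled SD of repeated spots (0.24). Among these, it turned the sign for mitochondrial stress (0.19 to -0.11), glucosinolates (-0.09 to 0.16) and chromatin enzymes (0.01 to -0.23). It did so too for autophagy (0.06 to -0.19) and methionine sulfoxide reductases (0.02 to -0.29). It moved others in size: sugar-repressed genes from -1.65 to -2.31, salicylate markers from -1.19 to -1.59, anther and seed markers from -0.62 to -1.86, chitinases from -0.23 to -0.48, pectin enzymes from 0.54 to 0.28, nitrogen and iron from 0.17 to 0.65, leaf markers from 0.10 to 0.36, kinesins and mitotic proteins from 0.04 to 0.41, and cell division, cold and drought, and histones, each from 0.02, to 0.44, 0.43 and 0.32. Of 83 genes at 2-fold chosen by rule, 74 stayed there, AT3G45730 turned from 2.06 to -2.28 (irradiated values 4.62 and 4.05), and 8 came under 2-fold: CYP71B5 at 0.72, BGLU33 at 0.96, JAL23 at 0.68, HDA15 at -0.99, APS4 at -0.91, AT2G05510 at -0.32, UGT85A4 at -0.97 and CYP71B22 at -0.79. So did 5 other named genes, CHAT at 0.40, APL3 at 0.88, PDC3 at -0.94, CYTC6A at -0.89 and DEWAX at -0.9999. The other 26 list medians there, and all 42 under centring, scaling and zeros left out, moved by less than that SD. A smaller move can still turn the sign of a median near 0. Subtracting the irradiated mean did so for DNA damage and repair genes (0.08 before). Probes of AT1G71370 (-1.57 and 0.01), AT2G05510 (-1.87 and -0.30) and AT5G28220 (0.03 and 1.17) disagreed, and the cause was not tested.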
